A study of Mus musculus with 20 samples.

Results

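The comparison described here set the chromatin contact map of E11.5 mouse limb buds homozygous for the *Inv2* inversion against the wild-type map, over all pairs of 5 kb bins of the captured *Lbx1*/*Fgf8* locus, chr19:44440001-46400000 on the mm9 build. It rested on 8 of the 20 samples of the series, 4 of each genotype. Contacts were read in the reference order of the bins and again in inverted order, with the bins between the breakpoints turned around as they lie on the *Inv2* chromosome.

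Mammalian chromosomes fold into topologically associating domains (TADs), stretches whose DNA contacts itself more often than its surroundings, and many of the boundaries between them are bound by the zinc finger protein CTCF. Regulatory elements mostly contact promoters of their own TAD, and an inversion that spans a boundary can place an element beside other genes. In the limb, *Lbx1* encodes a homeodomain transcription factor of migrating muscle precursors, *Fgf8* encodes a growth factor made by the apical ectodermal ridge (AER), the signalling epithelium at the edge of the limb bud, and *Btrc* encodes an F-box protein that selects substrates for a ubiquitin ligase. Most of the enhancers that drive *Fgf8* in the AER lie some distance from it, in introns of *Fbxw4*, which encodes a further F-box protein, and another lies close to *Fgf8* itself. Below, the AER enhancers are those within *Fbxw4*.

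The study modelled rearrangements of a congenital hand and foot malformation, and its *Inv2* allele moves the AER enhancers and *Btrc* together relative to *Lbx1* and *Fgf8*. Capture Hi-C (cHi-C), in which baits enrich the ligated fragments of 1 locus, was done on forelimb and hindlimb buds dissected at E11.5 and pooled. The control embryos were wild-type with the strain label c57bl6.J. The mutant embryos were homozygous for the *Inv2* inversion, with the strain label G4 ESC, the 129sv/C57Bl6 hybrid embryonic stem cells in which the alleles of the study were made before several founders per line were bred to C57BL/6 mice. Genotype and strain therefore cannot be told apart. The labels name no other allele and no treatment in either group. Each deposited map merged 3 biological and 1 technical replicate, so that each genotype is represented by 1 map, no spread between embryos is known and no test was made. Intervals given below are 95% counting intervals and cover counting error only, not the spread between embryos or between library preparations. The AER is a small share of a limb bud, contacts are averages over its cells, and the tissue could not be checked against marker genes because contact maps hold no expression.

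The wild-type map held 7867931 read pairs, 6288135 of them between different bins, with a median of 21 per bin pair. The *Inv2* map was deeper, with 12790852 read pairs, 10708098 between bins and a median of 41. Of 392 bins, 389 had values in each map. Contact is given below as mean signal per bin pair after both maps were scaled together, and a ratio is always *Inv2* over wild-type.

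The inversion was made with a pair of Cas9 guides, and its ends are shown because every comparison turns on them. The guides were matched to mm9, where each had 1 exact site on chromosome 19, and the letters below were read from that genome. Both sites are intergenic. The centromeric one, on the plus strand at chr19:45332272-45332291, lies between *Lbx1* and *Btrc*, and the telomeric one, on the minus strand at chr19:45792723-45792742, between *Fbxw4* and *Fgf8*. The targets are written 5′ to 3′ with the PAM, which Cas9 requires beside its target, in capitals:
centromeric guide: ctgacatttagctgtgatcgGGG
telomeric guide: ttaaatttctccaagataagAGG

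Cutting 3 bases before each PAM bounds an inverted interval of 460437 bp, chr19:45332289-45792725. On the plus strand around the centromeric cut, the capitals mark a GATC, the recognition sequence of DpnII, the enzyme used to fragment the chromatin. The cut falls inside it, whereas the same window at the telomeric cut holds none:
centromeric cut: gacatttagctgtGATCgggggctgcacac
telomeric cut: tctgttctgcctcttatcttggagaaattt

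The bins that hold the cuts, 1 at each end, contain sequence of both sides and were left out, which leaves 91 bins (455 kb) inside, 178 on the centromeric side and 121 on the telomeric side. *Lbx1* (start at 45310301, minus strand) stays outside on the centromeric side and *Fgf8* (start at 45817405, minus strand) outside on the telomeric side. *Btrc* (start at 45438224, plus strand) moves with the inversion to a start at 45686790. *Poll*, which encodes DNA polymerase lambda, and *Dpcd*, linked to motile cilia, share a promoter region near the boundary that separates the *Lbx1* TAD from that of *Fgf8*, and their starts move from 45635021 and 45635105 to 45489993 and 45489909. *Fbxw4* (start at 45734802, minus strand) moves to 45390212. The AER enhancer interval, chr19:45655001-45705000, lies 367.5 kb on average from the *Lbx1* start bin and 137.5 kb from that of *Fgf8* in the reference order. In inverted order it takes the place 45420001 to 45470000, 132.5 kb from *Lbx1* and 372.5 kb from *Fgf8*. The inversion thus exchanges the distances of *Lbx1* and *Fgf8* from the enhancers nearly in full, and leaves those among *Btrc*, *Poll*, *Dpcd*, *Fbxw4* and the enhancers as they were.

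**Figure D1:**
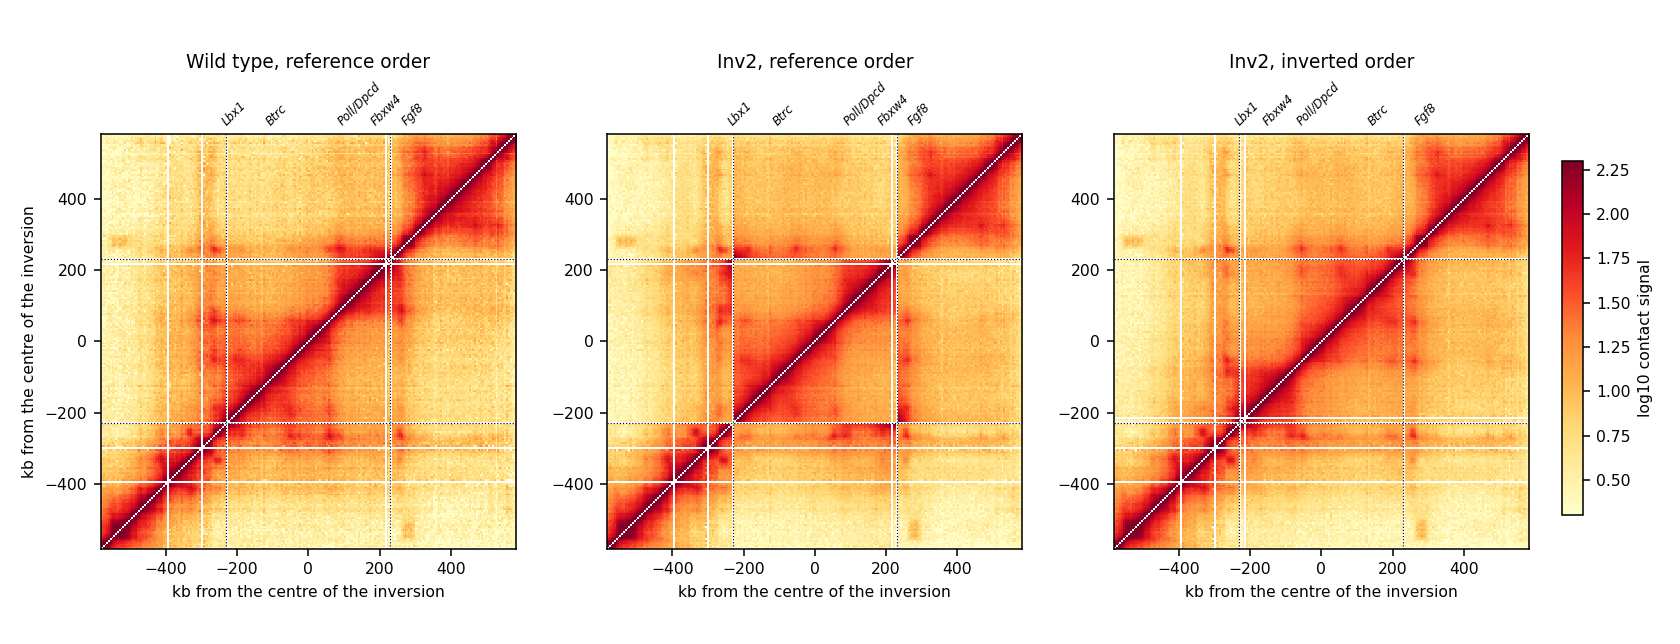
Contact signal around the inversion on a log10 colour scale, with both axes in kb from the centre of the inverted interval: wild-type in reference order, *Inv2* in reference order and *Inv2* in inverted order. Dotted lines mark the breakpoints and white marks bins without values; in reference order the *Inv2* map is broken at both lines and bright at the corners where the new junctions lie, and in inverted order the bright diagonal runs through.

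Contact across the reference breakpoints fell in *Inv2*, and contact at the new junctions rose, both by less than the change in distance gives. Between the windows of 50 kb that flank the centromeric breakpoint, mean signal was 56.4 in wild-type and 18.4 in *Inv2*, a ratio of 0.327 (0.321 to 0.332). At the telomeric breakpoint it was 55.3 and 12.7, a ratio of 0.230 (0.224 to 0.236). For the windows that the inversion joins, signal went from 15.8 to 53.4 at the new centromeric junction, a ratio of 3.39 (3.29 to 3.49), and from 12.7 to 50.6 at the new telomeric junction, a ratio of 3.97 (3.88 to 4.07). Contact between both outer windows had a ratio of 0.959 (0.939 to 0.98) and that between both inner windows 1.01 (0.977 to 1.05), pairs whose distance the inversion does not change.

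The bins next to the cuts changed most. Those adjoining the centromeric cut shared 1588 read pairs in wild-type and 154 in *Inv2*, a signal of 234 against 14.1 and a ratio of 0.060 (0.0509 to 0.0708). Those adjoining the telomeric cut shared 604 and 66, a ratio of 0.0734 (0.0569 to 0.0946). The distance of 460 kb that separates each of these pairs in inverted order gives an expected ratio of 0.0319, so the contact left across the old breakpoints was above the mean for that distance. The pair joined at the new centromeric junction went from 20 read pairs to 647, a ratio of 19 (12.2 to 29.7), and the distance expectation was 31.4. Bin by bin, the change fell where the guides place it. With the outer bins of its own side, the last bin before the centromeric cut had a ratio of 0.985, the bin holding the cut 0.583 and the next bin 0.350. At the telomeric cut the same scan read 0.282 before, 0.575 in the bin that holds the cut and 0.98 after it.

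Over the whole map most changes past a fold of 1.5 lay in pairs with 1 bin inside the inversion and 1 outside. Averaged in blocks of 5 by 5 bins (25 kb a side), 137 of 3003 blocks (4.56%) were higher in *Inv2* by a fold of 1.5 or more and 63 (2.1%) were lower. Scaling the maps to the same total in place of the same signal at each distance gave 269 higher and 48 lower. Of the 1062 blocks with 1 side inside, 134 were higher and 63 lower. None of the 171 blocks with both sides inside passed the fold, and their ratios ran from 0.876 to 1.21. Of the 1770 blocks with both sides outside, 3 were higher, with ratios of 1.53 to 1.55, and none was lower, though the lowest ratio, 0.667, fell just short of the fold. Pairs with both bins outside set the scaling at each distance, so their mean ratio near 1 follows from the scaling. With scaling to the same total, 23 blocks past the fold had both sides inside or both outside, against 3 here. The direction followed the change in distance. Among the 531 blocks that are nearer in inverted order, 134 were higher and 1 was lower, with a median ratio of 1.22. Among the 531 that are farther, none was higher and 62 were lower, with a median of 0.781. The extremes were a ratio of 0.153 between the 25 kb on either side of the centromeric cut and 6.40 between the start of the inverted interval and the 25 kb that hold *Fgf8*.

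Gains and losses were unevenly spread over the flanks. On the centromeric side, which holds *Lbx1*, 24 of 630 mixed blocks were higher and 41 lower, with a median ratio of 0.848. On the telomeric side, which holds *Fgf8*, 110 of 432 were higher and 22 lower, with a median of 1.23.

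**Figure D2:**
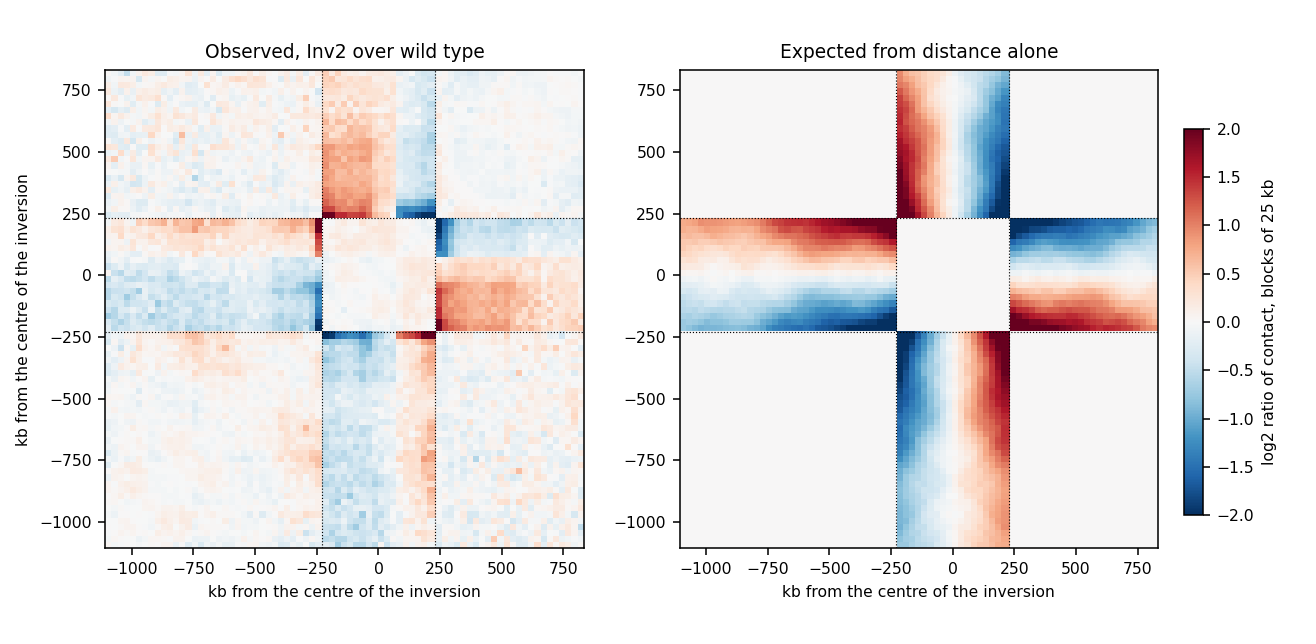
Log2 ratio of *Inv2* to wild-type contact in blocks of 25 kb over the whole captured interval, as measured and as predicted by the distances of the inverted order alone, with axes in kb from the centre of the inverted interval. Red blocks are higher and blue blocks lower in *Inv2*. The stronger measured changes keep mostly to the strips with 1 side inside the inversion, and away from the breakpoints they are paler than expected from distance.

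Inverted order described the *Inv2* map better than reference order did. For pairs with 1 bin inside, the ratio of *Inv2* contact to the mean wild-type contact at the same distance had an SD of 0.85 on the log2 scale over blocks when distances were taken in reference order, and 0.54 in inverted order. The wild-type map around its own distance mean had 0.54. A closer description came from the place itself: set against wild-type contact between the positions that the bins take in inverted order, *Inv2* contact had an SD of 0.35, and set against wild-type contact of the same sequences, 0.52. Around the distance mean, *Inv2* blocks with both sides outside, whose distances the inversion leaves as they were, also had an SD of 0.54, so that in inverted order mixed blocks spread no more than these. Between the maps, blocks with both sides outside had an SD of 0.14, below the 0.35 of mixed blocks set against wild-type contact of their place.

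*Lbx1* gained contact with the AER enhancers. Mean signal between its start bin and the enhancer interval was 15.5 in wild-type (1145 read pairs) and 32.1 in *Inv2* (4885 read pairs), a ratio of 2.07 (1.94 to 2.22). The shorter distance alone gives 2.54, of which 0.816 was reached. Each of the 10 enhancer bins was higher: the wild-type signals ran from 13.1 to 23.1 and the *Inv2* signals from 26.4 to 45, without overlap, and the ratios per bin from 1.77 to 2.38. The rise was not particular to the enhancers. Ratios with the 40 kb that hold *Lbx1*, 45290001 to 45330000, were also taken for the bins from 45650001 to 45790000. All 27 with values, the enhancer bins among them, had ratios of 1.74 to 6.81, with a median of 2.20. The 10 enhancer bins had a lower median, 1.94.

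*Fgf8* lost contact with the AER enhancers in *Fbxw4*. Signal was 42.9 in wild-type (2813 read pairs) and 14.5 in *Inv2* (1725 read pairs), a ratio of 0.337 (0.316 to 0.359), with 0.399 expected from distance. All 10 enhancer bins were lower, at 35.3 to 61.4 in wild-type and 11.52 to 20.8 in *Inv2*, with ratios of 0.254 to 0.415. The loss was shared as well. With the 25 kb that hold *Fgf8*, 45795001 to 45820000, all 27 bins from 45650001 to 45790000 had ratios of 0.132 to 0.361. Their median was 0.290, and that of the 10 enhancer bins was 0.333. The genes thus changed places. In wild-type the enhancers contacted *Fgf8* more than *Lbx1* in every one of the 10 bins, and in *Inv2* the reverse held in every one.

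*Btrc*, which is inverted together with the enhancers, kept its contact with them. Signal was 12.9 (407 read pairs) and 13.7 (807 read pairs), a ratio of 1.06 (0.934 to 1.2) at an unchanged distance of 242.5 kb. Single enhancer bins had ratios of 0.853 to 1.36, on both sides of 1. *Poll* and *Dpcd*, which share a bin, had a ratio of 1.03 (0.988 to 1.08), and *Fbxw4*, whose gene body holds the enhancer interval, 0.975 (0.923 to 1.03).

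**Figure D3:**
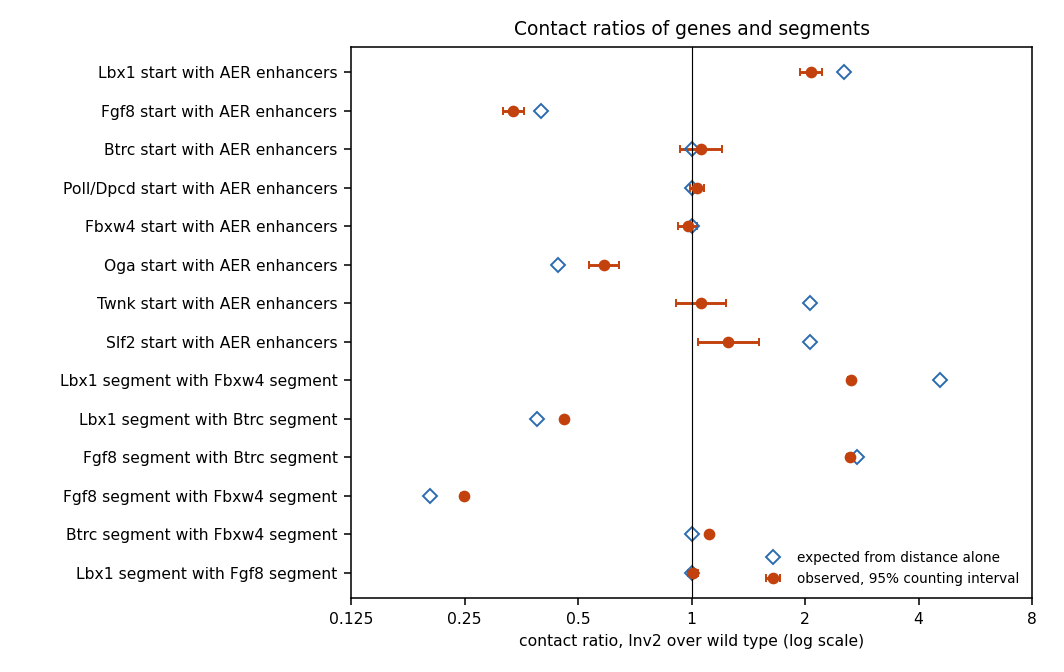
Ratio of *Inv2* to wild-type contact for pairs of genes, segments and the AER enhancers on a log2 axis, with bars for 95% counting intervals and a second marker for the ratio expected from distance in inverted order. Contact of *Lbx1* with the enhancers stands at 2.07 and that of *Fgf8* at 0.337, while *Btrc*, *Poll*, *Dpcd* and *Fbxw4* stand near 1.

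The larger gains of the enhancers lay beside *Lbx1* and their larger losses beside *Fgf8*. Of 377 bins with values, the enhancers and the breakpoint bins left aside, 7 (1.86%) had contact with the enhancer interval raised by a fold of 1.5 or more, and 15 (3.98%) had it lowered by as much. Of the 7, 6 were neighbours that cover 45300001 to 45330000, the 30 kb from near the centromeric boundary past *Lbx1* to the breakpoint, with ratios of 1.61 to 2.93, and the seventh lay at 44965001 to 44970000. Of the 15 lower bins, 14 were neighbours from 45795001 to 45865000, running from the breakpoint past *Fgf8* and its neighbour *Npm3* to *Oga*, with ratios of 0.328 to 0.629. The other one lay at 46075001 to 46080000. Inside the inversion none of 80 bins passed the fold, with a median of 1.08 (range 0.975 to 1.24).

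Among the gene starts of the interval, 34 protein coding genes in 30 bins had values for contact with the enhancers. *Lbx1* was the only one raised past the fold (3.33% of these bins, against 1.86% of all bins). Lowered past it were *Fgf8*, *Npm3*, which encodes a nucleoplasmin family chaperone, *Oga*, the enzyme that removes O-linked N-acetylglucosamine from proteins, and *Hps6*, a factor for lysosome-related organelles, together 13.3% of the bins against 3.98% of all. *Npm3* had a ratio of 0.340, near that of *Fgf8*, and *Oga* 0.587 (0.535 to 0.643), where distance gives 0.442.

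Genes beyond the centromeric boundary gained less than their new distance gives. *Slf2*, which encodes a DNA repair factor, had a ratio of 1.252 (1.04 to 1.51) against 2.07 expected. *Twnk*, the mitochondrial DNA helicase, shares a bin with *Mrpl43*, which encodes a mitochondrial ribosomal protein, and had 1.06 (0.906 to 1.23) against 2.06. Of genes with at least 100 read pairs in each map, the lowest values relative to expectation were those of *Lzts2* at 0.447 (ratio 0.922), of *Twnk* and *Mrpl43* at 0.512 and of *Tlx1*, a homeobox gene needed for the spleen, at 0.516 (ratio 1.05). All of these genes lie beyond the centromeric boundary. The highest were on the telomeric side, where *Nolc1*, a nucleolar protein gene, stood at 1.85 (ratio 0.921), *Armh3* at 1.70 (0.796) and *Elovl3*, a fatty acid elongase gene, at 1.69 (0.958). Over all bins, contact with the enhancers had a median of 0.680 of its expectation on the centromeric side and 1.51 on the telomeric side. The median ratios themselves were 1.13 on the centromeric and 0.816 on the telomeric side. In the median over all bins of a flank, the enhancers' contacts therefore moved in the direction of the new distance but by less. Single bins went the other way, down to 0.828 on the centromeric side and up to 1.21 on the telomeric side.

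Set against the place that the enhancers take, contact with both genes was above what that place had in wild-type. *Lbx1* contacted the stretch from 45420001 to 45470000, which holds the *Btrc* start, with a signal of 22.9 in wild-type, and the enhancers that occupy it in *Inv2* with 32.1, a ratio of 1.40 (1.32 to 1.48). *Fgf8* contacted that place with 10.3 and the enhancers there with 14.5, a ratio of 1.41 (1.28 to 1.55). The excess was not particular to these genes. The 100 kb beyond the telomeric boundary, 45825001 to 45925000, had a ratio of 1.41 (1.37 to 1.45) with the enhancers. For the 100 kb before the centromeric boundary, 45190001 to 45290000, it was 1.18 (1.14 to 1.21). The *Btrc* start itself was brought to the wild-type place of 45685001 to 45690000, which is a bin of the enhancer interval. There *Btrc* contacted *Fgf8* at 0.795 (0.667 to 0.948) of what that enhancer bin had in wild-type, from 212 read pairs in *Inv2* and 302 in wild-type.

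The larger segments show how much of each TAD was exchanged. The *Btrc* segment, 45335001 to 45615000, is the part of the *Lbx1* TAD inside the inversion, and the *Fbxw4* segment, 45650001 to 45790000, is the part of the *Fgf8* TAD inside it. Outside remain the *Lbx1* segment of 40 kb, 45290001 to 45330000, and the *Fgf8* segment of 25 kb, 45795001 to 45820000. Contact between the *Lbx1* segment and the *Fbxw4* segment rose from 16.2 to 42.9, a ratio of 2.65 (2.61 to 2.70) where distance gives 4.56. That of the *Fgf8* segment with the *Btrc* segment rose from 13.7 to 36.0, a ratio of 2.63 (2.59 to 2.67), close to the 2.74 that distance gives. The former neighbours separated. The *Lbx1* segment kept 0.460 (0.455 to 0.464) of its contact with the *Btrc* segment, and the *Fgf8* segment 0.249 (0.244 to 0.253) of that with the *Fbxw4* segment.

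Almost every bin of the inverted interval changed its preferred partner. In wild-type, all 56 bins of the *Btrc* segment contacted the *Lbx1* segment more than the *Fgf8* segment, and in *Inv2* 2 of 56 did. Of the *Fbxw4* segment, none of 27 bins with values did so in wild-type and all 27 did in *Inv2*. Over the whole inverted interval 84 of 90 bins switched. In the stretch between both segments, 45615001 to 45650000, which holds the boundary between the TADs, 4 of 7 bins preferred the *Lbx1* segment in wild-type and 7 of 7 in *Inv2*.

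What moved together stayed together. The ratio was 0.987 within the *Btrc* segment, 0.981 within the *Fbxw4* segment and 1.11 (1.10 to 1.12) between them. The enhancers and the *Btrc* segment had 1.11 (1.10 to 1.13). Contact between the segments that stay outside, *Lbx1* and *Fgf8*, was 1.01 (0.981 to 1.04), and between the start bins of both genes 1.03 (0.895 to 1.187).

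Between gene starts the read pairs were fewer. *Fgf8* and *Btrc* shared 38 read pairs in wild-type and 212 in *Inv2*, a ratio of 2.51 (1.78 to 3.55), and *Lbx1* and *Btrc* had a ratio of 0.519 (0.405 to 0.666). *Lbx1* and *Fbxw4* had 2.54 (1.95 to 3.31), and *Fgf8* and *Fbxw4* 0.302 (0.242 to 0.377). *Btrc* thus exchanged *Lbx1* for *Fgf8* as its nearer developmental gene, while *Fbxw4* did the opposite.

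Profiles of contact from 1 viewpoint (virtual 4C) show these exchanges as shares of each gene's contacts. Each profile is scaled to 1000 without the viewpoint bin and 1 bin on either side. *Lbx1* spent 34.6% of its profile on the *Btrc* segment in wild-type and 14.7% in *Inv2*. Its share on the AER enhancers was 2.69% (2.54 to 2.85) and 5.96% (5.80 to 6.13), and on the rest of the *Fbxw4* segment 4.54% and 15.6%. The share on the *Fgf8* segment was 2.26% and 2.41%.

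The *Fgf8* profile changed the opposite way. It spent 7.94% (7.65 to 8.23) on the enhancers in wild-type and 2.54% (2.43 to 2.67) in *Inv2*, and 16.8% and 4.57% on the rest of the *Fbxw4* segment. On the *Btrc* segment it spent 15% and 32.9%. From *Btrc*, the share on the *Lbx1* segment went from 4.24% to 1.98% and that on the *Fgf8* segment from 0.995% to 2.74%, while 60.8% and 57.6% stayed within its own segment and 2.23% and 2.39% fell on the enhancers. From the enhancers, 3.12% of contacts fell on the *Lbx1* segment and 5.14% on the *Fgf8* segment in wild-type, and 6.31% and 1.65% in *Inv2*. Shares are sums over stretches of unequal length, 10 bins for the enhancers and 56 for the *Btrc* segment. They can be set side by side between maps, but not between segments. The enhancers spent most of their contacts, 52.4% and 54.4%, within the inverted interval itself.

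**Figure D4:**
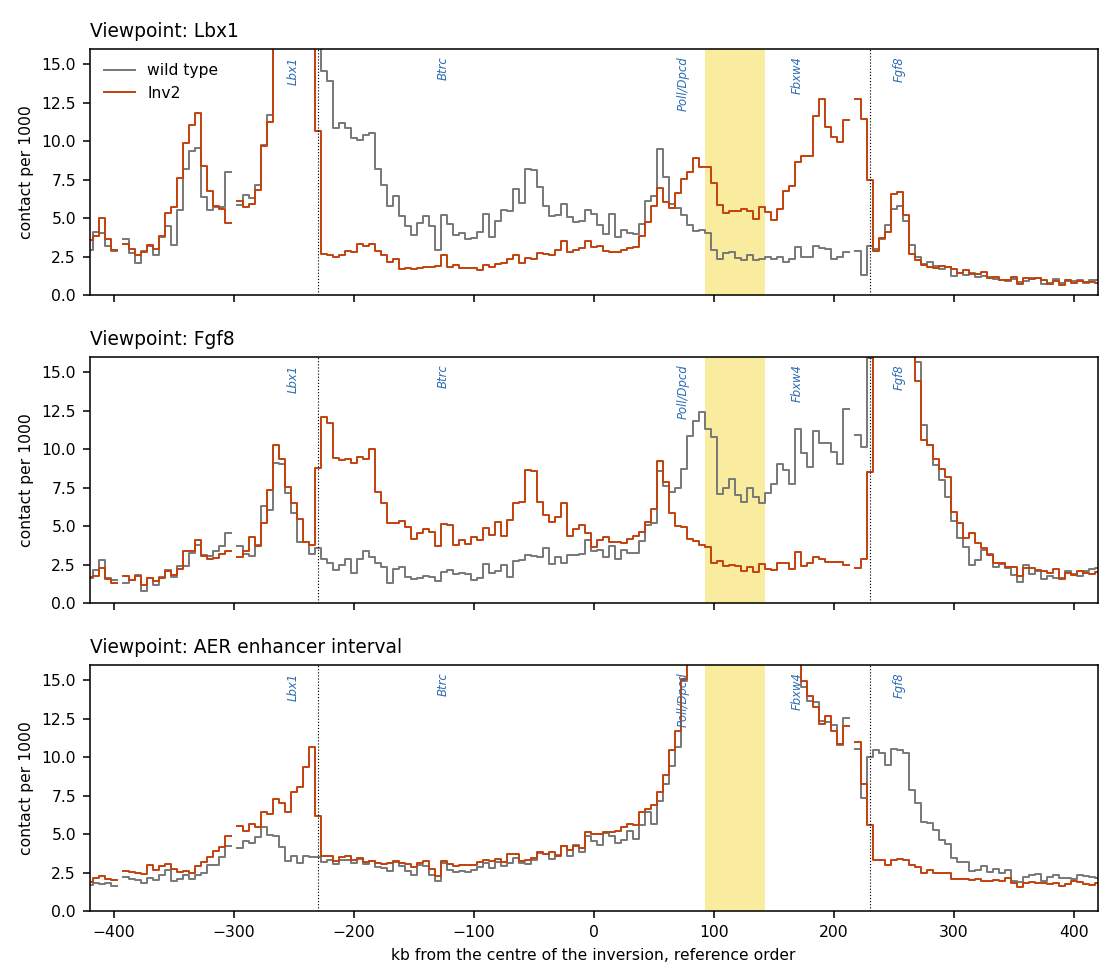
Virtual 4C profiles from *Lbx1*, *Fgf8* and the AER enhancers in wild-type and *Inv2*, in contacts per 1000 of each profile against the distance in kb from the centre of the inverted interval, bins in reference order. The yellow band is the enhancer interval and dotted lines are the breakpoints; *Lbx1* gains and *Fgf8* loses on the band, at 2.69% and 5.96% against 7.94% and 2.54%.

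Peaks of the wild-type profiles were followed in *Inv2*. A bin within *Btrc*, 45505001 to 45510000, took 8.20 per 1000 of the *Lbx1* profile in wild-type and 2.4 in *Inv2*, and 3.13 and 8.67 of the *Fgf8* profile. The bin at the *Lbx1* side of the middle boundary, 45615001 to 45620000, took 9.52 and 6.95 from *Lbx1* and 8.57 and 9.25 from *Fgf8*, so that it stayed a peak for both. On its *Fgf8* side, 45650001 to 45655000 took 4.27 and 8.31 from *Lbx1* and 12.4 and 3.78 from *Fgf8*. As these bins were chosen for being high in wild-type, their wild-type values are high by choice.

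Beyond 100 kb from the outer boundaries, change was smaller than for the *Lbx1* and *Fgf8* segments. Between the centromeric far side, 44440001 to 45190000, and the *Btrc* segment the ratio was 0.785, and 0.736 to 0.88 over 11 blocks, although distance gives 0.363 to 1.18 for them. For the same far side and the *Fbxw4* segment it was 1.22 over all and 1.12 to 1.38 by block, where distance gives 1.68 to 2.67. The telomeric far side, 45925001 to 46400000, had 1.42 with the *Btrc* segment (1.24 to 1.61 by block, expected 0.831 to 3.15) and 0.795 with the *Fbxw4* segment (0.728 to 0.838, expected 0.329 to 0.560). The ratios of the blocks of a segment thus spread less than their distances give. The stretch with the middle boundary had 0.949 with the centromeric and 1.08 with the telomeric far side, where distance gives 1.39 and 0.688.

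The outer boundaries kept contact with each other, and those of the middle boundary changed. Boundary contact is given as the mean signal of 3 by 3 bins divided by the average for their distance. Between the centromeric boundary and the telomeric boundary the highest pair was 45295001 to 45300000 with 45815001 to 45820000 in both maps, with 6.85 in wild-type and 6.77 in *Inv2*, a signal ratio of 0.989 (0.947 to 1.03). The centromeric boundary contacted the *Lbx1* side of the middle boundary at 5.44 in wild-type and 2.67 in *Inv2*, where distance was taken in inverted order, and the signal itself had a ratio of 0.709. The contact of the telomeric boundary with the *Fgf8* side of the middle boundary went from 3.07 to 2.09, a signal ratio of 0.354 where distance gives 0.520; by reference distances the *Inv2* value was 1.09.

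Those pairs were the highest near the boundaries in wild-type, and another choice was made in *Inv2*. There the telomeric boundary was highest with 45620001 to 45625000, at the *Lbx1* side, which stood at 3.47 and had been at 2.18 in wild-type. These values are relative to different distances, 320 kb in inverted and 200 kb in reference order. The signal itself was 38.0 in wild-type and 41.5 in *Inv2*, a ratio of 1.09 (1.03 to 1.15). For the centromeric boundary the highest bin near the *Lbx1* side was 45610001 to 45615000, at 3.05 in *Inv2* and 4.33 in wild-type, and near the *Fgf8* side 45640001 to 45645000, at 2.49 and 3.68. The highest bin of the middle boundary for the telomeric one thus lay at 45645001 in wild-type, on the side that faces it, and at 45620001 in *Inv2*, on the side that faces it in inverted order. For the centromeric boundary no such change of the highest bin was clear. In *Inv2* its contact with 45610001, on the *Lbx1* side, had a signal of 48.2 and that with 45640001 47.5, a difference within counting error. The bin at 45640001 is nearer in inverted order and lies on the *Fgf8* side, which then faces the centromeric boundary. Signal ratios were 0.931 (0.881 to 0.984) for 45610001 and 1.22 (1.16 to 1.28) for 45640001. Each map's own highest pair is high there by choice.

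A consensus of CTCF (12 letters, searched on both strands in these windows and the whole interval) matched at 21 sites, in 20 of 392 bins (5.10%). The matches at the bins of the outer boundary contact are shown, and with them the only 1 inside the inversion, with the consensus in capitals and 4 bases on either side, each written along the strand it matched:
centromeric boundary, chr19:45297051-45297062, plus strand, intergenic: ctgcCCAGCAGGTGGCccag
inside the inversion, chr19:45459537-45459548, plus strand, intron of Btrc: tgcaCCAGTAGAGGGCatca
telomeric boundary, chr19:45811875-45811886, plus strand, intron of Fgf8: caccCCAGCAGATGGCgagg
telomeric boundary, chr19:45821024-45821035, plus strand, intergenic: acgcCCACCAGAGGGCgcta
telomeric boundary, chr19:45822167-45822178, minus strand, intergenic: gggaCCACCAGGTGGCactg

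Among these matches, only that in *Btrc* has its direction turned by the inversion. The paper also places divergently oriented CTCF sites at the middle boundary, and a further site within an AER enhancer of *Fbxw4*. Those sites lie inside the inversion too, and the search for the consensus did not find them. No match lay in the middle boundary stretch, which says only that these letters are not in that window.

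Insulation was measured as the log2 ratio of contact across a bin edge, in a square of 100 kb, to its mean over the map, so that lower values mean stronger separation. In wild-type the lowest values near the boundaries were -0.61 at the centromeric, -0.57 at the middle and -0.90 at the telomeric boundary. In *Inv2* read in inverted order they were -0.48, -0.47 and -0.93. On the telomeric side the local minimum itself lay farther out in wild-type, at the edge 45860001 with -0.91, and at 45825001 in *Inv2* read in inverted order. The middle minimum, at the edge 45620001 in wild-type, lay at 45505001 in inverted order. In reference order the *Inv2* map had its deepest minima at the breakpoints, -1.36 at 45330001 and -1.84 at 45795001, and kept a middle minimum of -0.42 at 45620001. The lowest scores near the breakpoints in inverted order were -0.38 at the edge 45315001 and -0.62 at 45800001, beside -0.43 at 45315001 and -0.44 at 45805001 in wild-type.

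**Figure D5:**
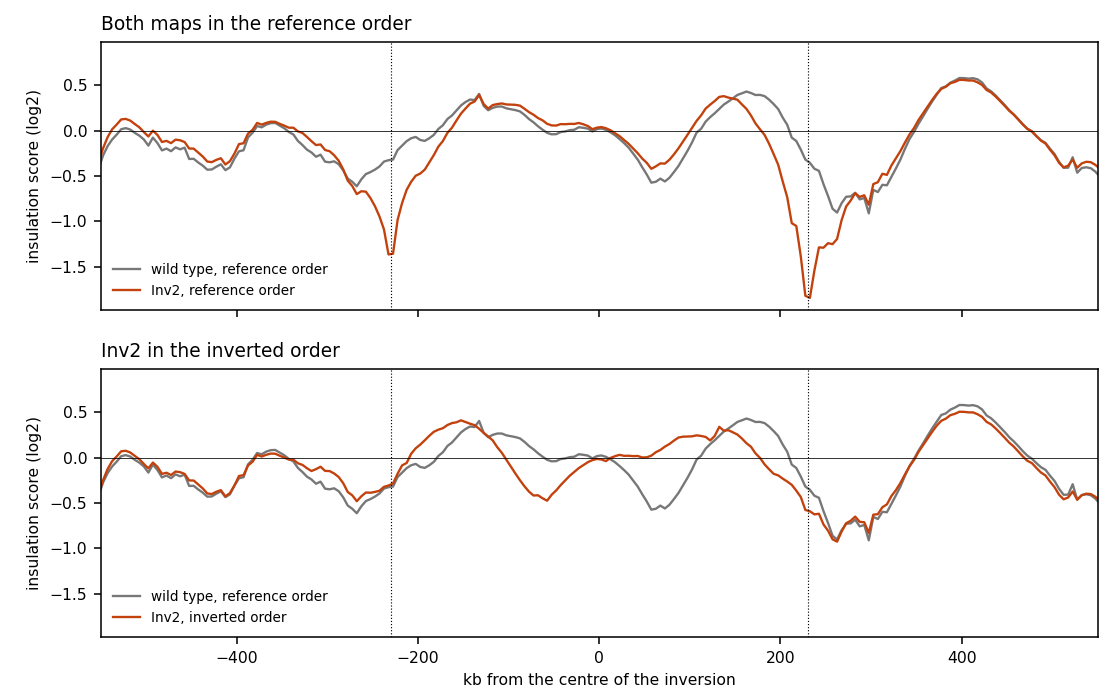
Insulation score (log2 ratio, squares of 100 kb) along the locus against distance in kb from the centre of the inverted interval, for both maps in reference order and for *Inv2* in inverted order. In reference order *Inv2* has deep minima of -1.36 and -1.84 at the breakpoints, and in inverted order its 3 minima lie near the boundaries.

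The *Inv1* allele of the same study, an inversion that leaves *Btrc* in place, gave other values against the same wild-type map. Contact with the AER enhancers had a ratio of 1.05 (0.974 to 1.13) for *Lbx1*, 1.55 (1.38 to 1.75) for *Btrc* and 0.421 (0.397 to 0.446) for *Fgf8* in *Inv1*, beside 2.07, 1.06 and 0.337 in *Inv2*. The alleles change distance differently: distance gives 1.05, 1.06 and 0.927 in *Inv1*, and 2.54, 1 and 0.399 in *Inv2*. From its maps, the paper describes the ectopic contacts of *Inv2* as generally much weaker than those of *Inv1*. The ratios here are higher in *Inv1* for *Btrc*, but for *Lbx1* they go the other way, at 1.05 in *Inv1* and 2.07 in *Inv2*. The measures differ. The paper read areas of its maps, its subtraction map in particular, while each ratio here is for 1 start bin and an enhancer interval of 50 kb. As both comparisons share the wild-type map, an error in it enters both, and the difference between the alleles was not tested.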

How the data were processed

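Capture Hi-C was measured in 4 wild-type and 4 homozygous *Inv2* samples, each group being 3 biological and 1 technical replicate. According to the study's methods, the authors trimmed reads to 50 bp where needed, aligned them to mm9 with Bowtie2 2.4.2 within HiCUP, which also filtered the pairs and dropped duplicates, joined the replicates, and binned and balanced (KR) the pairs of the captured interval with a mapping quality of at least 30 in Juicer 1.19.02. The deposited values are KR balanced signal per pair of 5 kb bins, 1 merged map per genotype.

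Read pairs were recovered by undoing the balancing: all values came out whole within 0.01. Both maps were then scaled to the same sum at each distance, the inverted interval being left out, and to a total of 1000000, as the study's methods describe. Expectations from distance used the mean decay of the wild-type map. A ratio interval was taken as 1.96 standard errors of its logarithm from the recovered read pairs, and shares have Wilson intervals, both at 95%. A pair was called past a fold of 1.5. Calculations were made in Python 3.11.15 with numpy 2.4.6, scipy 1.17.1 and matplotlib 3.10.9 and were tested on simulated data.

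Named genes were *Lbx1*, *Btrc*, *Poll*, *Dpcd*, *Fbxw4* and *Fgf8*, the flanking *Slf2*, *Twnk* and *Oga*, and the 3 genes with the highest and the 3 with the lowest enhancer contact relative to expectation among those with at least 100 read pairs in each map. Other genes named for passing the fold were chosen after their values were seen. Regions, lists and comparisons were chosen with earlier results of these data known. The ends of the TAD segments, boundaries and enhancer interval were read by eye from the study's drawing and are uncertain by at least 1 bin. The CTCF search and the profile peaks were added after the maps were seen. The deposited subtraction maps, which hold the authors' own differences between genotypes, and the maps of the other genotypes were not used, except the *Inv1* map for 3 values. Alternatives were the scaling, the balancing, the enhancer interval, the viewpoint width, the decay, the margin at the breakpoints, the fold, the block size, the window of the insulation score and the size of the boundary squares.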

Additional observations from a re-analysis of the deposited data

How the results depend on the processing

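Of 74 values recomputed for 25 results, 26 stayed within the counting interval or, for counts, within 1.5 times, and 48 were counted as moved. SDs and insulation scores have no counting interval, and small differences in them also counted as moved, such as an SD of 0.848 against 0.851. No recomputed ratio changed direction by crossing 1. For counts, SDs, insulation scores and profile shares, a change of direction could not be judged in this way. The comparison is limited by 1 merged map per genotype: no library could be left out, the strain differs with the genotype, and a bin is wider than a single enhancer. No paired analysis was possible because each deposited map joins the replicates of its genotype. The cause of the changes below was not tested.

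Contact of *Lbx1* with the enhancers had a ratio of 2.23 with scaling to the same total only, 1.92 with the inverted interval kept in the scaling, 2.46 without balancing and 2.57 for a wider enhancer region. That of *Fgf8* was 0.375 without balancing and 0.306 for the wider region. In the order total scaling, interval kept in and no balancing, the *Lbx1* segment had 2.90, 2.19 and 2.56 with the *Fbxw4* segment and 0.465, 0.478 and 0.473 with the *Btrc* segment, and the *Fgf8* segment 2.78, 2.38 and 2.95 with the *Btrc* segment. The *Fgf8* and *Fbxw4* segments had 0.259 with the interval kept in and 0.276 without balancing. Without balancing, contact over that of the same place was 1.75 for *Lbx1* and 1.67 for *Fgf8*.

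Blocks higher and lower numbered 23 and 21 at a fold of 2, 312 and 335 at a lower fold, and 31 and 12 of 741 larger blocks. Scaling to the same total, chosen after seeing the data, gave 269 higher. On the log2 scale the SD in reference order was 0.82 with 2 more bins left out beside each breakpoint bin and 0.85 with either other decay, and in inverted order 0.53, 0.56 and 0.57. Against the same place it was 0.36 with the bins left out.

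The *Lbx1* profile gave the enhancers 2.91% and 6.44% in wild-type and *Inv2* with a viewpoint of 3 bins, and 3.32% and 7.18% with 5 bins left out on either side. With 5 bins left out *Fgf8* gave 9.38% and 2.97%. In squares of 5 by 5 bins, *Inv2* boundary contacts were 5.17 between the outer boundaries, 2.41 between the centromeric and middle ones, and 1.97 between the middle and telomeric ones. By reference distances the latter pairs had 3.86 and 1.09. The middle insulation score was -0.72 and -0.62 in wild-type and *Inv2* with windows of 10 bins, and -0.32 and -0.21 with 40.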
